A study of Mus musculus with 146 samples.

Results

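The libraries in which the carbohydrate kinase gene Fggy was nearly silent were compared with those that expressed it. A library was called Fggy-silent when it had under 1 CPM of Fggy (counts scaled to the library total in M, where M stands for mega, by column sum of the raw table) and Fggy-expressing above a bound set higher, which all other libraries met with at least 11.3 CPM. The rule placed 17 of 146 libraries among the Fggy-silent and the remaining 129 among the Fggy-expressing. These same values chose the libraries, so the difference in Fggy itself is a description and was not tested. Silent here means this low level, since every one of the 17 libraries still held Fggy counts.

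Each library came from the bone marrow-derived macrophages of 1 mouse of the outbred CFW stock, labelled Crl:CFW(SW)-US_P08, at 16 weeks of age. Fggy-silent and Fggy-expressing mice shared strain, age, 5 days of differentiation in L929-conditioned medium and the absence of any treatment. The Fggy-silent libraries were 11 labelled female and 6 labelled male, against 75 and 54 among the Fggy-expressing. The libraries differ by mouse, and the genotypes of the mice were not analysed here, so relatedness between mice is not accounted for in the p values.

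FGGY kinases transfer phosphate from ATP to sugars and polyols, and Fggy is named for the domain that the family shares. In human and yeast the enzyme encoded by FGGY or its homologue phosphorylates D-ribulose, a pentose whose phosphate belongs to the pentose phosphate pathway. That pathway supplies NADPH, which macrophages use for the oxidative burst and for lipid synthesis, and pentoses for nucleotides.

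Fggy (ENSMUSG00000028573) lies on the plus strand at chr4:95557507-95926939 of GRCm38, and RefSeq gives it 2 start windows in the GRCm38.p6 table. Both windows are shown since they are the 5′ ends of the gene that chose the libraries, with the window of its nearest tested neighbour Hook1 and 1 of the windows of Miip, which had the smallest p of all tested genes. Each runs from 250 bases before to 50 bases after the start, 5′ to 3′ on the strand of the gene. Capitals mark CCAAT and GGGCGG on either strand, which read ATTGG and CCGCCC on the other strand.
Fggy, chr4:95557257-95557556, plus strand: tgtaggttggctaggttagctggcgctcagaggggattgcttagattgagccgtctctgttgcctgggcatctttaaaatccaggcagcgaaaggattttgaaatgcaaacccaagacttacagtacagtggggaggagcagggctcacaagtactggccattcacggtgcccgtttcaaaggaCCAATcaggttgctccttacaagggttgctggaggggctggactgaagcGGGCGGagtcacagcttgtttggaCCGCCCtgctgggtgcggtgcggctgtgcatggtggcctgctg
Fggy, chr4:95579171-95579470, plus strand: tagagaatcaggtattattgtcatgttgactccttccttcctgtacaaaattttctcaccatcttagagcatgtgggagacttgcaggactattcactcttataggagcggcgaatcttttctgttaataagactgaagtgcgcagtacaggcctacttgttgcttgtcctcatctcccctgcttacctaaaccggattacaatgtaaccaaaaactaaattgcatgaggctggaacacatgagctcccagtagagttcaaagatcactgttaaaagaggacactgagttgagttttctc
Hook1, chr4:95967129-95967428, plus strand: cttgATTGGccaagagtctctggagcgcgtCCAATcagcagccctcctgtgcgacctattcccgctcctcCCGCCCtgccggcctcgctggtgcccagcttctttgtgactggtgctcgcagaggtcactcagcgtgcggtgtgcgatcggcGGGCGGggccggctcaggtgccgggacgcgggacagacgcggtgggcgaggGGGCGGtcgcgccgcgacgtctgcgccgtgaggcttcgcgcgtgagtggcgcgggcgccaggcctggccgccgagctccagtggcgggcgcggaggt
Miip, chr4:147868467-147868766, minus strand: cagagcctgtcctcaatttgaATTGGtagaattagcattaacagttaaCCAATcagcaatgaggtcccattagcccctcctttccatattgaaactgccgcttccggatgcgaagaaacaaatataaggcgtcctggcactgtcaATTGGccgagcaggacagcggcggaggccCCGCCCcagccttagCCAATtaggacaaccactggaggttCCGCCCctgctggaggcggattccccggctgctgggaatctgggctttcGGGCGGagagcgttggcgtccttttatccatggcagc

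The first Fggy window held 1 CCAAT and 2 GGGCGG matches, with 10 CpG dinucleotides and a GC content of 56%. The second window held neither motif, 4 CpG and a GC content of 42%. The Hook1 window was richer, with 40 CpG, a GC content of 72.7%, 2 CCAAT and 3 GGGCGG matches, while the printed Miip window had 15 CpG, 4 CCAAT and 3 GGGCGG. A second RefSeq window of Miip, chr4:147868670-147868969, overlaps the printed one and had 10 CpG, 2 CCAAT and 0 GGGCGG. Searched on both strands, TATAAA (the TATA box), TGANTCA (the AP-1 motif) and GAGGAA (a form of ETS site) had no match in these 4 windows. The shorter GGAA that other ETS sites hold was not counted. Over 32851 RefSeq windows of the same length, 37.4% held CCAAT, 35.7% GGGCGG, 13.6% TATAAA, 7.81% TGANTCA and 28.3% GAGGAA, and 43.5% had at least as many CpG as the first Fggy window. A match describes the letters only, and the counts per gene do not show which of the Fggy starts was used.

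Depth ranged over 24.8 to 74.7 M counts in the Fggy-silent libraries (median 40.5) and 14.5 to 121 M in the Fggy-expressing (median 44.5). Mean depth was 44.4 ± 14.7 M in Fggy-silent and 47.7 ± 19.5 M in Fggy-expressing libraries (SD, n = 17 and 129), a difference of -3.31 M that a two-sided permutation test placed at p = 0.504. With plate means subtracted and the permutation kept within plates, the difference was 1.08 M (p = 0.730), so its sign turned, and neither value was past the threshold. The share of libraries labelled female was 64.7% of the Fggy-silent and 58.1% of the Fggy-expressing (Fisher's exact test, two-sided, p = 0.794). Sex-linked genes went against the sex label in 6 libraries, all of them Fggy-expressing, and results were also computed without these. The macrophage markers were high in both groups, with 12804 to 20766 CPM summed over 12 markers in Fggy-silent and 12371 to 26197 CPM in Fggy-expressing libraries.

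Fggy had between 0.0644 and 0.901 CPM in the Fggy-silent libraries, with a median of 0.362, and between 11.3 and 29.2 CPM in the Fggy-expressing, with a median of 20.3. The groups were far apart, and no library lay between them. The mean was 0.355 ± 0.233 CPM in Fggy-silent and 20.5 ± 3.99 CPM in Fggy-expressing libraries (SD, n = 17 and 129), 57.6 times higher in the Fggy-expressing. The highest Fggy-silent library, female 22 on plate 1, had 0.901 CPM from 64 counts, and the lowest Fggy-expressing library, female 21 on the same plate, had 11.3 CPM from 837 counts. Just inside and just outside the rule, these values differed 12.6-fold, while the whole range of the Fggy-expressing libraries spanned 2.58-fold.

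The remaining signal differed among the Fggy-silent libraries themselves. Female 15 on plate 10 had 2 counts, male 46 on plate 7 had 4, and the sum over all 17 was 289 Fggy counts. Each Fggy-silent library had between 0.318% and 4.44% of the median level of the Fggy-expressing libraries. None of the 50-base stretches of the annotated Fggy exons occurred in another annotated gene, while reads with mismatches were not examined. In bulk RNA, fewer cells that express a gene and less RNA per cell cannot be told apart, which holds for every level below.

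Among the Fggy-expressing libraries the levels formed 1 continuous range. There were 9 libraries under 15 CPM, 98 between 15 and 25 CPM and 22 above 25 CPM. The largest step between neighbouring libraries was from 11.3 to 13.4 CPM, or 0.25 on the log2 scale, against 3.65 between the highest Fggy-silent and the lowest Fggy-expressing library. In libraries labelled female the mean was 0.363 ± 0.266 CPM in Fggy-silent and 19.8 ± 3.87 CPM in Fggy-expressing (SD, n = 11 and 75). In those labelled male it was 0.340 ± 0.177 CPM in Fggy-silent and 21.4 ± 3.99 CPM in Fggy-expressing (SD, n = 6 and 54).

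**Figure D1:**
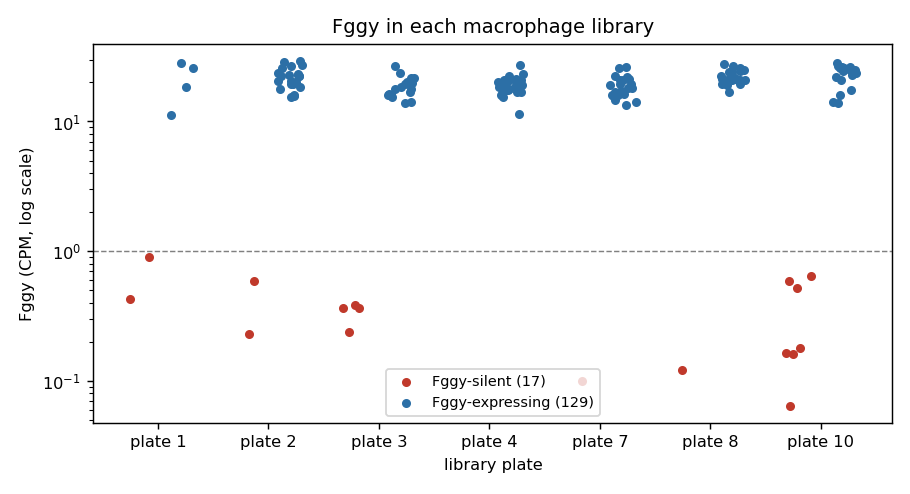
Fggy in CPM on a log axis for each library, by plate, with Fggy-silent libraries in red to the left of Fggy-expressing libraries in blue, and a dashed line at 1 CPM. The 17 Fggy-silent points lie between 0.0644 and 0.901 CPM on 6 of 7 plates, and the 129 Fggy-expressing points between 11.3 and 29.2 CPM on all 7.

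Fggy-silent libraries were spread over 6 of the 7 plates but unevenly. Plate 10 held 7 of them among 24 libraries, plate 3 held 4 of 22, plates 1 and 2 held 2 each of 6 and 24, and plates 7 and 8 held 1 each of 23. Plate 4 held none of 24. Collection dates of the mice gave a similar spread, with Fggy-silent mice on 12 of 28 dates and at most 3 on one date. Overall 11.6% of the libraries were Fggy-silent, with an exact (Clopper-Pearson) 95% interval of 6.93% to 17.99% that covers counting error only. Because of the uneven spread, plate was a covariate in the models across genes unless another covariate is named, and within-plate differences are given for Hook1, Miip and Nat8f4.

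The genes within 2 Mb of Fggy were examined first, for which 63 annotated genes other than Fggy overlapped the window. The table of counts held 22 of them, of which 7 had no count in any library. These were 5 members of the Cyp2j cluster of cytochrome P450 genes (Cyp2j5, Cyp2j7, Cyp2j11, Cyp2j12 and Cyp2j13), Gm12695 and Gm10192. Another 6 were too low to be tested. The highest of these, Eqtn, a gene of the sperm acrosome, averaged 0.101 CPM in Fggy-silent and 0.0796 CPM in Fggy-expressing libraries. Tek, the angiopoietin receptor of endothelial cells, averaged 0.0341 CPM in Fggy-silent and 0.0362 CPM in Fggy-expressing libraries. Tests were therefore possible for 9 neighbours.

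None of these 9 genes passed the threshold of an adjusted p under 0.05 in edgeR's quasi-likelihood test with Benjamini-Hochberg adjustment over all 12501 genes tested besides Fggy, where 0.016% of genes passed. DESeq2 and limma voom likewise called 0 of the 9. At an unadjusted p under 0.05 there were 2 of 9, Hook1 and Caap1, against 4.41% of all tested genes. The median log2 difference, Fggy-silent minus Fggy-expressing, was -0.00 over the 9 and -0.00 over all tested genes, and 7 of the 9 had a negative value against 50.1% of all. Those 7 include Plaa at -0.0043, Mysm1 at -5.2e-05 and Nfia at -0.0025. The signs of these genes changed in 9, 15 and 13 of 37 alternatives, so the count says little about direction.

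Hook1, which links cargo to microtubules in endosomal transport and starts 0.0403 Mb beyond the end of Fggy on the same strand, had the smallest p of the neighbours. It had 0.591, 1.85 and 5.26 CPM as the lowest, median and highest Fggy-silent value, against 1.15, 2.86 and 15.2 CPM in the Fggy-expressing. The groups overlapped, with 13 of 17 Fggy-silent libraries under the median of the Fggy-expressing. The log2 difference was -0.47 ± 0.16 (SE), with a 95% interval of -0.78 to -0.16, an unadjusted p of 0.00344 and an edgeR adjusted p of 0.975. On all 6 plates with Fggy-silent libraries the Fggy-silent mean was the lower one, by a log2 ratio between -1.10 on plate 7 and -0.04 on plate 10. Plates 7 and 8 held 1 Fggy-silent library each, so the value there is a single library. Without plate 10 the log2 difference was -0.75, and without female 12, which at 5.26 CPM was the highest Fggy-silent library, it was -0.63, with edgeR adjusted p values of 0.548 and 0.235. With 5 principal components added to the model, an alternative chosen after the data were seen, Hook1 passed the threshold at -0.62 (edgeR adjusted p = 0.00482).

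Jun, the AP-1 transcription factor subunit induced early after stimulation, was the most abundant neighbour and lies 0.505 Mb before Fggy. It had 107, 184 and 252 CPM as lowest, median and highest value in Fggy-silent libraries, against 118, 185 and 322 CPM in Fggy-expressing libraries. The ranges nearly coincided, and the log2 difference was -0.04 ± 0.07 (SE). Plaa, a ubiquitin-binding protein of protein degradation, averaged 112 ± 10.5 CPM in Fggy-silent and 114 ± 8.31 CPM in Fggy-expressing libraries, with a log2 difference of -0.00 and an interval of -0.06 to 0.05.

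Mysm1, a histone H2A deubiquitinase required in blood cell formation, averaged 58.8 ± 5.49 CPM in Fggy-silent and 60.2 ± 6.62 CPM in Fggy-expressing libraries. Its log2 difference had an interval of -0.08 to 0.08. Ift74, a subunit of the intraflagellar transport machinery, averaged 15.8 ± 1.47 CPM in Fggy-silent and 15.8 ± 1.86 CPM in Fggy-expressing libraries, with an interval of -0.07 to 0.09. These were the narrowest intervals besides Plaa, and each lay within 0.10 of 0 on either side. Caap1, an inhibitor of apoptosis, averaged 15.1 ± 2.49 CPM in both groups, and the model with plate gave 0.10 ± 0.05 (SE) with an unadjusted p of 0.0422.

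Downstream of Hook1, Cyp2j6, an epoxygenase of the P450 family, averaged 4.18 ± 1.49 CPM in Fggy-silent and 4.89 ± 1.31 CPM in Fggy-expressing libraries. Its log2 difference was -0.20 ± 0.11 (SE) with an unadjusted p of 0.0549. Cyp2j9 was close to the limit of detection at 0.0914 CPM in Fggy-silent and 0.129 CPM in Fggy-expressing libraries. Its interval of -1.02 to 0.37 was the widest of the tested neighbours and bounds its difference only loosely at this depth. Nfia, a transcription factor of the nuclear factor I family, averaged 3.59 ± 1.22 CPM in Fggy-silent and 3.85 ± 1.14 CPM in Fggy-expressing libraries, with an interval of -0.23 to 0.23.

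**Figure D2:**
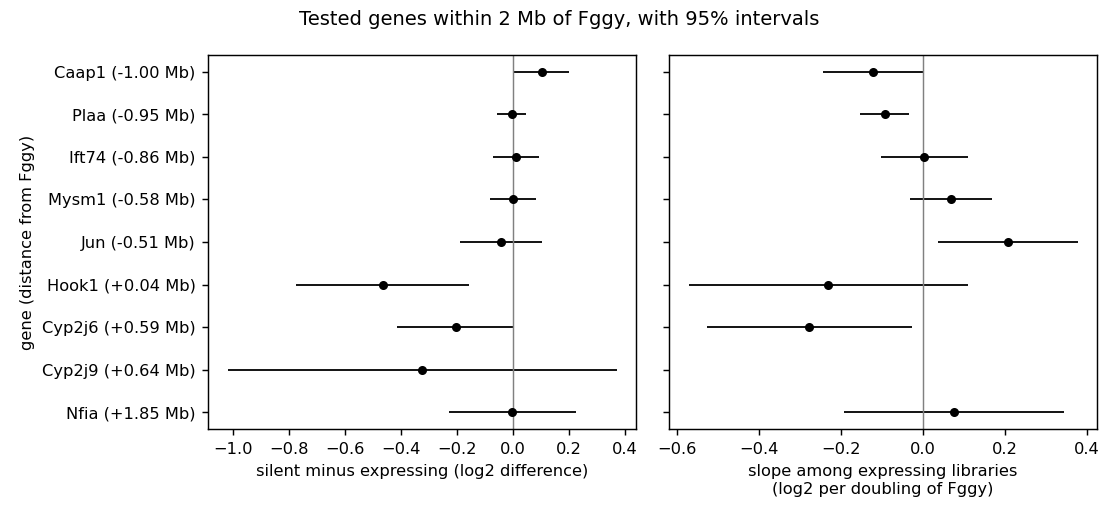
The 9 tested genes within 2 Mb of Fggy, in order along chromosome 4, with the log2 difference of Fggy-silent minus Fggy-expressing libraries on the left and the log2 slope per doubling of Fggy among Fggy-expressing libraries on the right. Points are edgeR estimates and lines 95% intervals. On the left Hook1 stands lowest at -0.47, and 6 genes lie within 0.11 of 0. On the right Jun is above 0 and Plaa and Cyp2j6 are below it, and Cyp2j9 was too low for that model.

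Elsewhere in the genome 2 genes passed the threshold, both lower in Fggy-silent libraries, which is the whole of the 0.016% called. Each way, 0.016% of tested genes were called lower and 0.0% higher. DESeq2 called the same 2 genes. Limma voom called Miip and also Gm10222, which was higher in Fggy-silent libraries (log2 difference 0.63, limma voom adjusted p = 0.00376). EdgeR with no covariate called Gm10222 as well, again higher in Fggy-silent libraries (log2 difference 1.87, adjusted p = 0.00957). At an unadjusted p under 0.05, 551 genes or 4.41% were reached by edgeR, 602 by DESeq2 and 581 by limma voom. The median size of the log2 difference over all tested genes was 0.039.

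Miip (ENSMUSG00000029022), named for its inhibition of cell migration and invasion in human cells, lies on the same chromosome as Fggy at chr4:147860778-147868816, 51.9 Mb away. Its lowest, median and highest values were 8.07, 12.04 and 17.6 CPM in Fggy-silent libraries, against 10.5, 14.4 and 21.1 CPM in Fggy-expressing libraries. The groups overlapped, yet 16 of 17 Fggy-silent libraries lay under the median of the Fggy-expressing and 3 lay under their lowest value. The mean was 11.99 ± 2.16 CPM in Fggy-silent and 14.3 ± 1.87 CPM in Fggy-expressing libraries (SD, n = 17 and 129). The log2 difference was -0.32 ± 0.05 (SE), with an interval of -0.42 to -0.21 and an edgeR adjusted p of 0.000208.

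Miip was lower in Fggy-silent libraries on each of the 6 plates that held any, by log2 ratios between -0.57 on plate 2 and -0.10 on plate 1. Plates 1 and 2 held 2 Fggy-silent libraries each, and plates 7 and 8 held 1 each. It passed the threshold with each single Fggy-silent library left out. Without plate 3, which held 4 Fggy-silent libraries, its log2 difference was -0.26 with an edgeR adjusted p of 0.253. None of its 50-base stretches occurred in another annotated gene.

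Nat8f4 (ENSMUSG00000068299, chr6:85899051-85904884), of the family of GCN5-related N-acetyltransferases, was the other gene past the threshold. Its lowest, median and highest values were 0.444, 0.742 and 1.03 CPM in Fggy-silent libraries, against 0.319, 1.05 and 2.09 CPM in Fggy-expressing libraries. All 17 Fggy-silent libraries lay under the median of the Fggy-expressing, and none lay outside their range. The mean was 0.737 ± 0.162 CPM in Fggy-silent and 1.05 ± 0.293 CPM in Fggy-expressing libraries (SD, n = 17 and 129), with a log2 difference of -0.53 ± 0.11 (SE) and an edgeR adjusted p of 0.0255.

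This call was the less stable one. Within plates the Fggy-silent mean was lower on all 6 plates, by log2 ratios between -0.71 on plate 10 and -0.23 on plate 2. Plates 1 and 2 held 2 Fggy-silent libraries each, and plates 7 and 8 held 1 each. The call remained in 10 of the 17 models that left out a single Fggy-silent library. It was lost when female 8, 12, 17, 24, 40 or 45 or male 30 was left out, at log2 differences between -0.53 and -0.50. Without plate 3 the log2 difference was -0.48 and without plate 10 it was -0.44, with edgeR adjusted p values of 0.586 and 0.99996. Of its 50-base stretches, 18.1% occurred in another annotated gene, so part of its counts could be assigned to a related gene.

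**Figure D3:**
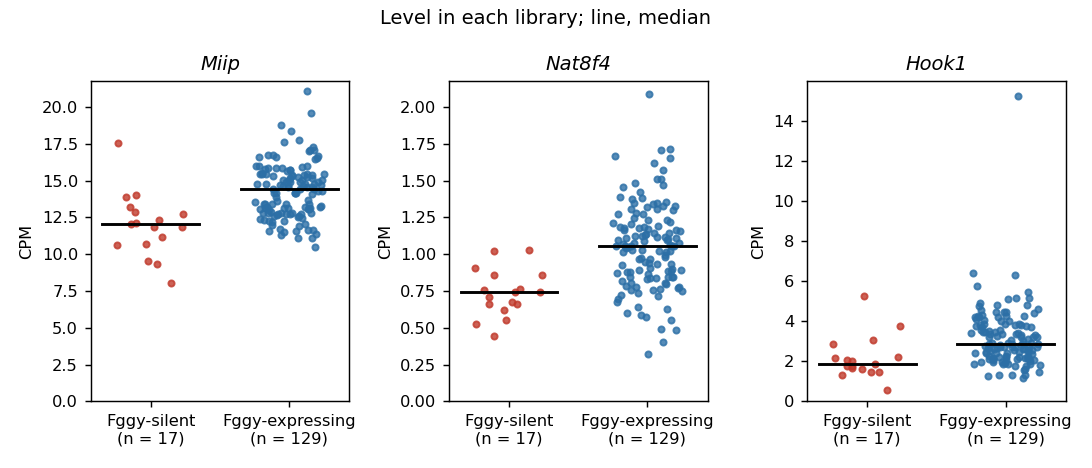
Miip, Nat8f4 and Hook1 in CPM on linear axes from 0, 1 point per library, with Fggy-silent libraries on the left, Fggy-expressing on the right and a line at each median. The medians in Fggy-silent and Fggy-expressing libraries were 12.04 and 14.4 CPM for Miip, 0.742 and 1.05 CPM for Nat8f4 and 1.85 and 2.86 CPM for Hook1, and the points of both groups overlap in all 3 panels.

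The next 3 genes by p did not pass the threshold, each with an edgeR adjusted p of 0.437. Zfp709, a zinc finger gene by name, averaged 11.9 ± 1.62 CPM in Fggy-silent and 10.3 ± 1.68 CPM in Fggy-expressing libraries, a log2 difference of 0.24 ± 0.06 (SE). Atl3, an atlastin that shapes the endoplasmic reticulum, averaged 271 ± 23.8 CPM in Fggy-silent and 262 ± 26.8 CPM in Fggy-expressing libraries, a log2 difference of 0.11 ± 0.03 (SE). Fv1, which restricts murine leukaemia virus, averaged 3.06 ± 0.862 CPM in Fggy-silent and 3.90 ± 0.988 CPM in Fggy-expressing libraries, a log2 difference of -0.38 ± 0.10 (SE). Fv1 at chr4:147868979-147870358 adjoins Miip, and it passed the threshold when lane within plate was in the model (edgeR adjusted p = 0.00154) or collection date replaced plate (0.00714).

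**Figure D4:**
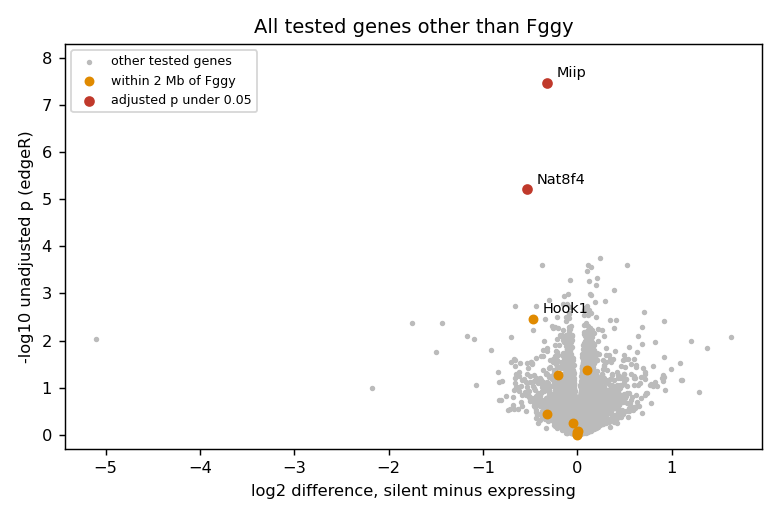
Log2 difference of Fggy-silent minus Fggy-expressing libraries against -log10 of the unadjusted edgeR p for 12501 genes, with genes within 2 Mb of Fggy in orange and genes past the adjusted threshold in red. Miip at -0.32 and Nat8f4 at -0.53 stand above all other genes, and Hook1 at -0.47 lies among many genes of like p. The far left point is Mecom at -5.10, whose median in Fggy-expressing libraries was 0.0279 CPM and whose highest library had 189 CPM.

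The genes that share the biochemistry of Fggy were taken from lists. Of the 4 other kinases of the FGGY family, 0 passed in edgeR's test of Fggy-silent against Fggy-expressing libraries and 0 had an unadjusted p under 0.05. Gk, glycerol kinase, averaged 54.2 ± 12.6 CPM in Fggy-silent and 53.7 ± 10.6 CPM in Fggy-expressing libraries. Xylb, xylulokinase, averaged 7.57 ± 2.46 CPM in Fggy-silent and 7.59 ± 2.48 CPM in Fggy-expressing libraries. Gk5 averaged 12.7 ± 1.53 CPM in Fggy-silent and 12.4 ± 2.11 CPM in Fggy-expressing libraries, and Shpk, the sedoheptulose kinase, 4.23 ± 0.714 CPM in Fggy-silent and 4.19 ± 0.730 CPM in Fggy-expressing libraries. Their log2 differences lay between -0.00 and 0.10.

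Of 12 pentose phosphate pathway genes, 0 passed and 2 had an unadjusted p under 0.05 in edgeR's test, where 4.41% of all genes did, at a median log2 difference of -0.00. Taldo1, transaldolase, averaged 384 ± 34.1 CPM in Fggy-silent and 397 ± 35.1 CPM in Fggy-expressing libraries (log2 difference -0.07, p = 0.0221). Tkt, transketolase, averaged 428 ± 39.3 CPM in Fggy-silent and 454 ± 60.001 CPM in Fggy-expressing libraries (log2 difference -0.10, p = 0.0379). Rpe, the epimerase that acts on ribulose 5-phosphate, averaged 61.3 ± 8.63 CPM in Fggy-silent and 61 ± 9.90 CPM in Fggy-expressing libraries. Of the 8 genes of polyol and pentose side routes and of the 14 glycolysis enzymes, 0 passed and 0 had an unadjusted p under 0.05.

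In all, 22 lists of 228 genes were examined, of which 201 genes were tested. EdgeR, DESeq2 and limma voom each called 0 of the 201, with 8, 9 and 6 genes at an unadjusted p under 0.05, where edgeR had 4.41% of all tested genes. The macrophage identity list had 3 of 12 members there, Adgre1 (log2 difference -0.12, 589 ± 69.8 CPM in Fggy-silent and 612 ± 82 CPM in Fggy-expressing), Csf1r (-0.07) and Fcgr1 (-0.24), and 1 of the 12 had a positive difference, while 50.1% of all tested genes had a negative one. The median difference of that list was -0.08. Among interferon response genes, which stood at a median of -0.07 over 15 members, the smallest p was that of Cxcl10 at 0.317. Cholesterol biosynthesis genes stood at a median of 0.01 over 20 members, and 13 of the 20 had a positive difference.

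Markers of other cells overlapped in range between the groups. Summed over 8 stromal genes, Fggy-silent libraries had 2.29 to 45.2 CPM (median 8.85) and Fggy-expressing libraries 1.64 to 73.2 CPM (median 7.49). All 7 tested stromal genes had a positive difference (median log2 difference 0.52), where 50.1% of all genes had a negative one. The smallest p in edgeR's test was that of the matrix gene Dcn at 0.00857 (adjusted p = 0.998), at a log2 difference of 1.63. Dcn averaged 0.444 ± 0.950 CPM in Fggy-silent and 0.191 ± 0.502 CPM in Fggy-expressing libraries (SD), so each SD exceeded its mean. Neutrophil and precursor genes summed to 453 to 1919 CPM (median 814) in Fggy-silent and 260 to 2407 CPM (median 730) in Fggy-expressing libraries. Of 11 tested genes of that list, 10 had a positive difference (median 0.17), and 0 had an unadjusted p under 0.05. B cell genes summed to at most 7.25 CPM in Fggy-silent and 9.87 CPM in Fggy-expressing libraries, T and NK cell genes to at most 7.11 CPM in Fggy-silent and 8.73 CPM in Fggy-expressing libraries, and erythroid genes to at most 0.392 CPM in Fggy-silent and 1.27 CPM in Fggy-expressing libraries. The part of these cells in the results above was not tested.

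Whether the difference between Fggy-silent and Fggy-expressing libraries was alike in both sexes was tested by an interaction of status and labelled sex. EdgeR called 0 of 12501 genes, or 0.0%, with 1333 at an unadjusted p under 0.05 and a smallest adjusted p of 0.453. That number is larger than the 551 of 12501 genes in edgeR's test of Fggy-silent against Fggy-expressing libraries, and the reason was not tested. Limma voom called 0 with 1270, and edgeR without the 6 libraries against their sex label called 0 with 1494. Only 6 Fggy-silent libraries labelled male entered this model.

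The level of Fggy among the 129 Fggy-expressing libraries gave a different picture. There the slope of each gene on log2 Fggy passed the threshold for 5790 of 11554 genes, or 50.1%, of which 24.2% of all genes were positive and 25.9% negative (edgeR's quasi-likelihood test, Benjamini-Hochberg adjusted p under 0.05, plate as covariate). Both comparisons use the Fggy-expressing libraries, so the values are given side by side only. With 1 principal component of the expression values added to the model, 1344 genes elsewhere and 1 near Fggy, Nfia, passed. With 5 components none did, among 661 with an unadjusted p under 0.05. The first component held 21.3% of the variance among the Fggy-expressing libraries.

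Near Fggy, 2 of 8 genes passed in this model against 50.1% of all genes. Plaa had a slope of -0.09 ± 0.03 (SE) per doubling of Fggy (edgeR adjusted p = 0.0067) and Jun a slope of 0.21 ± 0.09 (adjusted p = 0.0355), beside differences of -0.00 and -0.04 between Fggy-silent and Fggy-expressing libraries. Hook1 had a slope of -0.23 ± 0.17 (edgeR adjusted p = 0.261), not past the threshold, beside its difference of -0.47. These estimates point opposite ways. The difference is less Hook1 in the libraries with less Fggy, and the slope is more Hook1 at lower Fggy. Cyp2j6 had a slope of -0.28 ± 0.13 (adjusted p = 0.0602). With 1 component added, the Jun slope was -0.05, and with 5 the Plaa slope was 0.00053, so each direction turned in 1 of these alternatives. The Jun slope was 0.06 with 5 components and the Plaa slope -0.08 with 1, neither past the threshold. Over 19 alternatives the call was kept in 12 for Jun and in 16 for Plaa. Jun was also not called with sex added or without plate 2, 4, 7 or 8. Plaa was also not called with collection date in place of plate.

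Elsewhere, the 6 genes with the smallest p were Gstm4, Tspan32, Aldoc, Pyroxd2, Snx29 and Dcxr, all with positive slopes. Dcxr, the L-xylulose reductase of the pentose side route that leads to xylulose, had a slope of 0.57 ± 0.07 (SE) per doubling of Fggy, beside a difference of -0.12 between Fggy-silent and Fggy-expressing libraries. Aldoc, aldolase C of glycolysis, had a slope of 1.03 ± 0.12 beside a difference of -0.07. Gstm4, a glutathione transferase, had a slope of 0.67 ± 0.07 beside a difference of 0.04, and the tetraspanin Tspan32 had a slope of 0.57 ± 0.06 beside a difference of 0.03. The slope was 1.39 ± 0.16 for Pyroxd2 and 0.50 ± 0.06 for the sorting nexin Snx29, beside differences of -0.04 and 0.03.

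In these 6 genes the Fggy-silent median lay between those of the 17 Fggy-expressing libraries with least Fggy (16.0 CPM or less) and the 17 with most (25.9 CPM or more). The medians of Gstm4 were 14.1 CPM in Fggy-silent libraries, 10.9 CPM at the low end and 17.1 CPM at the high end of the Fggy-expressing. Those of Aldoc were 62.1 CPM in Fggy-silent libraries, 43.7 CPM at the low end and 89.7 CPM at the high end. Those of Dcxr were 25.8 CPM in Fggy-silent libraries, 21.5 CPM at the low end and 30.5 CPM at the high end. Both ends were chosen by Fggy, and the genes by their slope on it, so these values are a description.

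**Figure D5:**
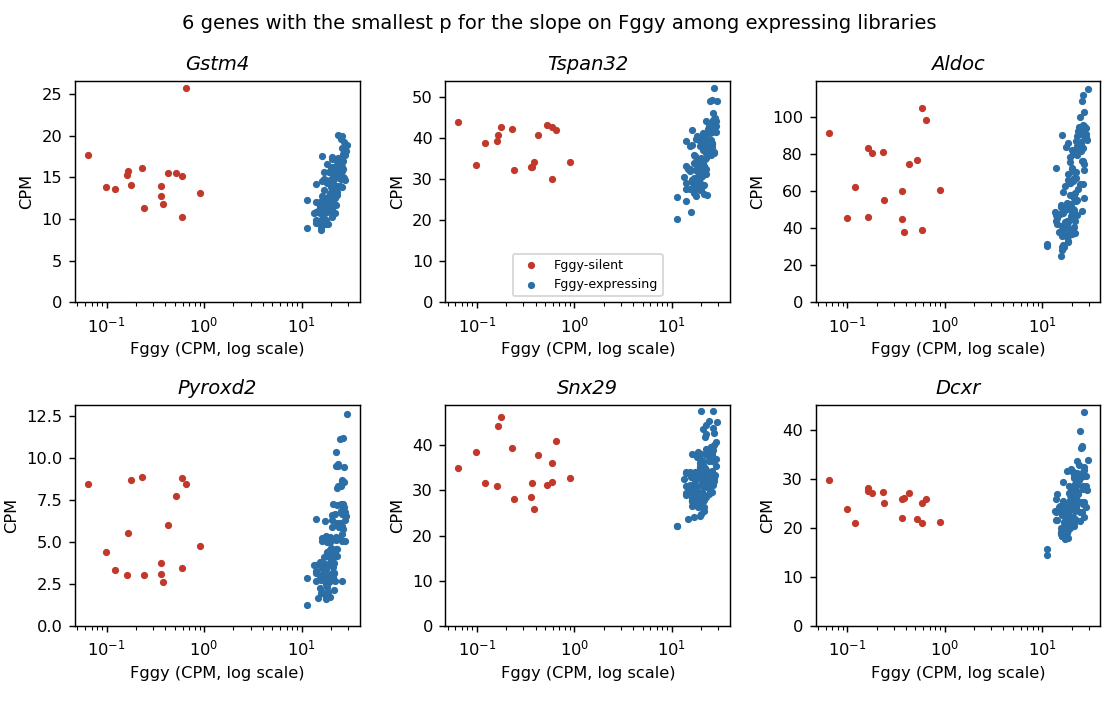
Level in CPM on linear axes from 0 of the 6 genes with the smallest p for the slope on Fggy, against Fggy in CPM on a log axis, with Fggy-silent libraries in red and Fggy-expressing in blue. Within the blue points the genes increase with Fggy, and the red points, under 1 CPM of Fggy, spread over much of the blue range, as for Gstm4 with 10.3 to 25.7 CPM in Fggy-silent and 8.63 to 20.1 CPM in Fggy-expressing libraries.

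By list, the slopes called were 109 of 183 listed genes, or 59.6%, against 50.1% of all genes (24.2% positive and 25.9% negative). Of 15 interferon response genes, 14 had a negative slope called, at a median of -1.17, with Cxcl10 at -2.38 ± 0.47 (SE), Isg15 at -1.17 ± 0.26 and Oasl2 at -1.39 ± 0.31. The difference between Fggy-silent and Fggy-expressing libraries for Cxcl10 was -0.38 ± 0.37. Of 12 pentose phosphate genes, 8 had a negative slope called and 0 a positive one, among them H6pd at -0.46, Prps1 at -0.39 and the ribokinase Rbks at -0.39. Of the 4 kinases of the FGGY family, Xylb at -0.82 ± 0.15 and Gk at -0.29 ± 0.07 had negative slopes called, while Shpk at 0.05 and Gk5 at 0.03 did not pass.

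Of the 8 genes of polyol and pentose side routes, 3 had a positive slope called, Dcxr, the ketohexokinase Khk at 0.55 and Cryl1 at 0.15, and 2 a negative one, among them the aldose reductase Akr1b3 at -0.58. Over all genes 24.2% had a positive slope called and 25.9% a negative one. Among 14 glycolysis enzymes 6 slopes were positive and 1 negative, together near the 50.1% called of all genes. Of these enzymes, the hexokinase Hk3 was at 0.44 and Pgk1 at 0.66. The AP-1 and immediate early list, which holds Jun, had 10 positive and 1 negative of 14, led by Egr1 at 0.99 ± 0.16. Mitosis genes had 9 negative and 0 positive of 14, with Bub1 at -0.44 and Mki67 at -0.25. LXR targets had 7 positive and 2 negative of 11, with Pltp at 1.99 ± 0.27, and cholesterol biosynthesis genes 1 positive and 5 negative of 20. All these called slopes are from edgeR's model with plate, and with 5 components added none of any list remained.

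Likeness to Fggy was described by Spearman's rho with its log2 CPM, after linear removal of plate from the values of each gene. Over all 146 libraries the highest absolute values were Smagp at 0.40, Fam234a at 0.39, Calcrl at -0.38, Dpy19l1 at -0.38, Miip at 0.38 and the neonatal Fc receptor gene Fcgrt at 0.37, against a median absolute value of 0.103 over tested genes. Over the 129 Fggy-expressing libraries they were Ubxn1 at 0.64, Gstm4 at 0.63, Smagp at 0.63, the ion cotransporter Slc12a2 at -0.63, Aldoc at 0.62 and Taz at 0.62, against a median of 0.199. Hook1 stood at 0.15 over all libraries and at -0.18 over the Fggy-expressing. These points come from shared plates, of which only the mean levels were removed. Both genes of a pair share the depth of each library, and the values carry no test.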

How the data were processed

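Libraries were prepared from polyadenylated RNA with a TruSeq kit and sequenced as 100 bp paired-end reads, per the labels' protocols. Per the submitters' processing notes, FastQC, TopHat2 2.0.11, HTSeq 0.6.1, DESeq2 and the build GRCm38 (mm10) were used. The deposited raw counts per gene, whole numbers for 22721 genes, were used for all results. The authors' deposited log2 values from a variance-stabilising transformation cover 10893 genes without Fggy and served as an alternative only. The annotation release and strand setting of the counting are not given in the sources used here, so a gene and its antisense partner cannot be told apart. Genes were named and placed from GENCODE M21, which matched 21822 of 22721 identifiers. Start windows are from RefSeq.

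CPM were computed from column sums. Plate was the covariate of the main models across genes, fitted in edgeR 4.0.16 (R 4.3.3) with glmQLFit and glmQLFTest, TMM factors and the filterByExpr filter, and p values were adjusted by Benjamini-Hochberg over all tested genes, with 0.05 as threshold. SE is the size of the log2 difference divided by the square root of F, and intervals are at 95%. Fggy is left out of all counts of genes. Slopes used log2 of Fggy CPM, with 0.5 added to the count before scaling, in Fggy-expressing libraries. Likeness values used log2 of CPM plus 0.5. DESeq2 1.42.0 and limma 3.58.1 (voom) were alternatives. Only edgeR's models of Fggy-silent against Fggy-expressing libraries and of the slope were run on simulated counts, which held no plate effect. Mean depth was compared with 100000 permutations. Sharing was the share of 50-base stretches of a gene's exons found in another annotated gene.

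Libraries were numbered within labelled sex in accession order. Named genes are the tested genes within 2 Mb of Fggy, the 5 genes with smallest p elsewhere since fewer than 3 passed, up to 4 members per list by p, the 6 smallest p for the slope and the 6 most alike. Caption and closing text also name genes chosen after their values were seen. The members, lists and tests were chosen with earlier results of these data known.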

Additional observations from a re-analysis of the deposited data

Results flagged for a closer look

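Within plates, the highest and lowest of 4 to 10 libraries of a status were set against the nearest of the others for 12 groups, and chance alone marks about 1 in 20 groups. There were 2 values that stood apart. Among the 4 Fggy-silent libraries of plate 3, female 40 was low in Fggy at 0.240 CPM, with the next at 0.362 CPM, a gap of 0.855 of the group's range. All 4 remain far under the lowest Fggy-expressing library. Among the 7 Fggy-silent libraries of plate 10, female 12 was high in Hook1 at 5.26 CPM, with the next at 2.23 CPM, a gap of 0.770 of the range. Without that library the Hook1 log2 difference was -0.63, with an edgeR adjusted p of 0.235.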

How the results depend on the processing

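The count of genes called elsewhere was 2 in the model reported. It was 11 with no filter on low counts, where 9 of the 11 had not been tested before and averaged 0.000965 to 0.0365 CPM over all libraries. It was 0 without plate 3, 1 without plate 10, 1 with limma on the deposited transformed values and between 1 and 2 with single Fggy-silent libraries left out. Miip kept its negative sign in all 37 alternatives and its call in all but the one without plate 3. Nat8f4 kept its sign in all 37 and lost its call with limma voom, with collection date, without plate 3, without plate 10 and with the deposited transformed values, besides the libraries named above. The count near Fggy stayed at 0 with each single library left out and was 1, Hook1, with 5 principal components added. Hook1 kept its sign in all 37 alternatives, while the signs of Mysm1, Nfia and Plaa, all near 0, changed in 15, 13 and 9.

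Among the Fggy-expressing libraries, 2 genes near Fggy had slopes called. The count was 1 with sex added, 1 with collection date in place of plate and 5 with no covariate. It was 1 without plate 2, 1 without plate 8 and 4 without plate 10. Without plate 4 or 7 the count stayed at 2, with Hook1 or Cyp2j6, respectively, called in place of Jun. With 1 component it was 1, which was Nfia and neither Jun nor Plaa. With 5 components it was 0, and for a window of 5 Mb on each side it was 7. Elsewhere 5788 slopes were called, against 1344 with 1 component and 0 with 5. The Jun slope turned to -0.047 with 1 component and the Plaa slope to 0.00053 with 5. The causes were not tested. The alternatives with components were chosen after seeing the data. No paired analysis was possible because the replicate numbers follow accession order and the labels tie no Fggy-silent mouse to a Fggy-expressing one. Depth limits Cyp2j9, whose interval is wide, and the untested neighbours, whose counts are too few to show a difference.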

Other observations

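Miip lies at the far end of chromosome 4 from Fggy, and the 10 Mb around it were looked at after its value was seen. Of 80 genes tested between 140 and 150 Mb, 8 had an unadjusted p under 0.05 in edgeR's test of Fggy-silent against Fggy-expressing libraries, or 10.0%, against 4.41% of all genes, and Miip alone passed after adjustment. The bin was chosen for Miip, and shares as high occurred in bins with no called gene, such as 3 of 12 genes (25.0%) between 20 and 30 Mb. On chromosome X the share was 7.75%. Gm13212 averaged 37.5 ± 13 CPM in Fggy-silent and 27.2 ± 10.1 CPM in Fggy-expressing libraries (log2 difference 0.53), and Zfp984 10.4 ± 5.33 CPM in Fggy-silent and 7.00 ± 4.35 CPM in Fggy-expressing libraries (0.71). Of their 50-base stretches, 56.8% and 54.5% occurred in other annotated genes, so counts of both are uncertain. In the bin of Fggy itself, 90 to 100 Mb, 4 of 20 genes had an unadjusted p under 0.05. Of the 20 genes with the smallest p in the genome, 5 were on chromosome 4, which were Miip, Fv1, Gm13212, Srsf10 and Zfp979, while 762 of the 12501 tested genes lay there. All of these but Srsf10 lay in the bin chosen for Miip. Over the whole of chromosome 4, 41 genes (5.38%) had an unadjusted p under 0.05 in edgeR's test, near the 4.41% of all genes. The share was higher on chromosomes 3 (6.51%), 16 (5.58%), 18 (6.06%) and X.

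Other genes were nearly silent, under 0.1 of their median, in some of these mice. Fggy-silent libraries were 11.6% of all libraries. Vwf was low in 8 libraries, H2-Eb1 in 10, Ifi27l2a in 9 and Raet1d in 5, and each of these sets held 1 Fggy-silent library. Msh5 was low in 17 libraries, none of them Fggy-silent.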
